A study of Mus musculus with 4 samples.

Results

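The peaks described here are the sites of the glucocorticoid receptor (GR) that lay in endogenous retrovirus repeats of the ERVL and MaLR families. The cells were PDGFRa+ adipose progenitors put through adipogenic differentiation. GR is the nuclear receptor that binds glucocorticoid hormones and, once bound, regulates genes from DNA sites that are often far from promoters. Peaks were taken from the deposited list of the PDGFRa+ immunoprecipitate where they lay on an autosome, were annotated as intron or intergenic, and carried an LTR repeat of a family other than ERVK and ERV1. They numbered 561 of the 10402 peaks of the list, or 5.39%. Autosomal intron and intergenic peaks numbered 9471, and the ERVL and MaLR peaks made up 5.92% of them (95% Wilson interval 5.47 to 6.42). No score, width or distance was used to choose them.

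PDGFRa+ cells, named for a platelet-derived growth factor receptor that marks precursors of fat cells, came from adipose tissue of C57BL/6 mice, abbreviated in the labels as SAT or VAT without saying which gave these cells, and were sorted with magnetic beads. The extraction protocol in the same labels speaks instead of embryonic cells and their zona pellucida, a conflict that the peak list does not settle. They were put through adipogenic differentiation and then exposed to dexamethasone, a synthetic glucocorticoid, at 1 µM, as were the CD137+ progenitors of the same study. The series holds 1 GR immunoprecipitate and 1 input for each of these 2 cell types, all from cells given dexamethasone, so no untreated cells serve as a control. With 1 library and no replicate, and with peaks of a library not being replicates of a condition, no test between groups of peaks was made. Intervals beside shares are 95% Wilson intervals and describe counting error alone. Read depth is unknown.

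Endogenous retroviruses are remnants of retroviral infections of the germ line, and most copies survive as a solitary long terminal repeat (LTR), the part that once held the promoter and enhancer of the provirus. ERVL elements encode their own proteins, whereas MaLR elements are related sequences without a full set of genes and are thought to have spread with the help of ERVL proteins. The MT and ORR1 groups of MaLR are found in rodents, with MTA and ORR1A the youngest in the mouse, while MLT1 and MLT2 are old elements shared among placental mammals. LTRs can bind transcription factors and can serve as promoters or enhancers of cellular genes. MT2 LTRs and the MERVL internal sequence are best known for their activity in the early mouse embryo.

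The family names bore out the label for 560 of the 561 peaks. MaLR held 461 peaks (82.2%, interval 78.8 to 85.1) and ERVL 99 (17.6%), and the last peak, in a Gypsy element, had a score of 49. The peaks were in 98 named repeats, of which 16 held 10 or more peaks and together 313, and 30 held a single peak. LTRs held 477 of the peaks and internal parts of the elements 84. GR peaks in these families were thus mostly in LTRs and spread over many subfamilies. The share of the genome that each repeat takes was not analysed here, so a preference of GR for or against any of them is not shown.

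MT elements held 199 peaks (35.5%) and ORR1 elements 186 (33.2%), so the rodent MaLR groups made up most of the set. Among the MT elements, MTE had 65 peaks, MTD 59, MTC 31, MTA 24 and MTB 18. Among the ORR1 elements, ORR1A had 62, ORR1D 40, ORR1B 31, ORR1E 30 and ORR1C 23. The single most frequent repeat was the MTD LTR with 55 peaks, ahead of ORR1E with 27, ORR1A2 with 26, MTC with 25 and MTEa with 24. The old MLT1 and MLT2 elements held 82 peaks (14.6%), of which MLT1A held 22, MLT1B 11, MLT1C 10 and MLT2 6. MT2 LTRs held 27 peaks and MERVL internal sequence 11, and RMER15, another ERVL group, held 23. No peak lay in an MST or THE1 element, other branches of MaLR. How many such elements the mouse genome holds was not examined, so this absence is not read as a result about GR.

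**Figure D1:**
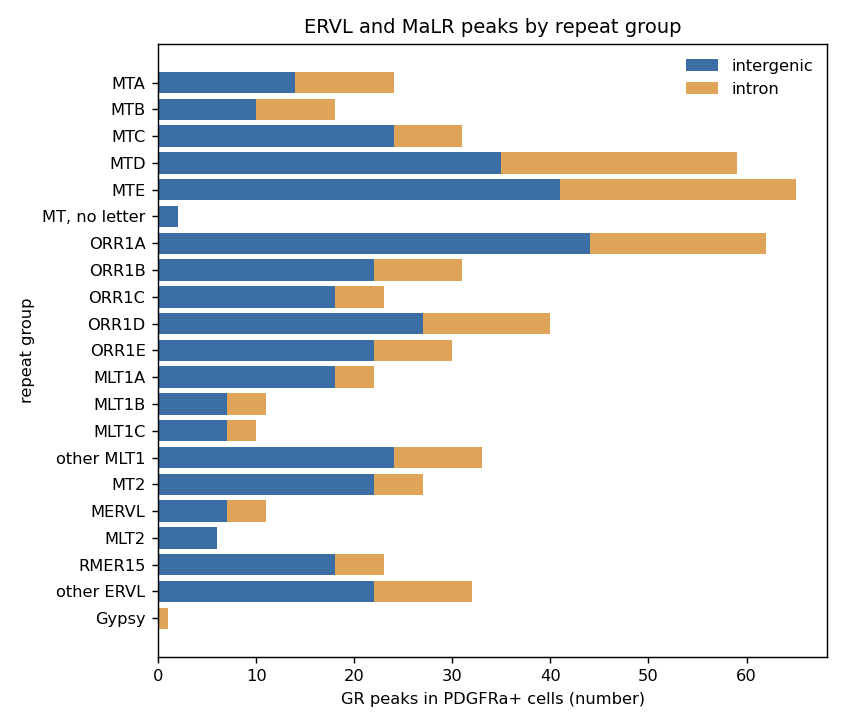
Number of GR peaks (x axis) in each repeat group (y axis), with intergenic peaks in blue and intron peaks in orange. MTE (65 peaks), ORR1A (62) and MTD (59) are the longest bars, and intergenic peaks outnumber intron peaks in every group but the single Gypsy peak.

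Of the 561 peaks, 390 were intergenic (69.5%, interval 65.6 to 73.2) and 171 in introns. Peaks outside repeats were intergenic in 54.1% (52.8 to 55.4) and peaks in SINE elements in 49.0% (45.4 to 52.7), shares whose intervals do not overlap that of the ERVL and MaLR peaks. Those in LINE elements stood at 72.9% (70.7 to 75.0) and those in ERVK and ERV1 elements at 75.7% (71.6 to 79.4), and their intervals overlap it. Within the set, the share was 63.3% in MT elements (56.4 to 69.7), 71.5% in ORR1 (64.6 to 77.5), 75.6% in MLT1 and MLT2 (65.3 to 83.6) and 76.3% in MT2 and MERVL (60.8 to 87.0). These intervals overlap one another. The lowest shares of a group over 10 peaks were 55.6% in MTB (33.7 to 75.4), 58.3% in MTA and 59.3% in MTD, and the highest 81.8% in MLT1A (61.5 to 92.7) and 81.5% in MT2.

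**Figure D2:**
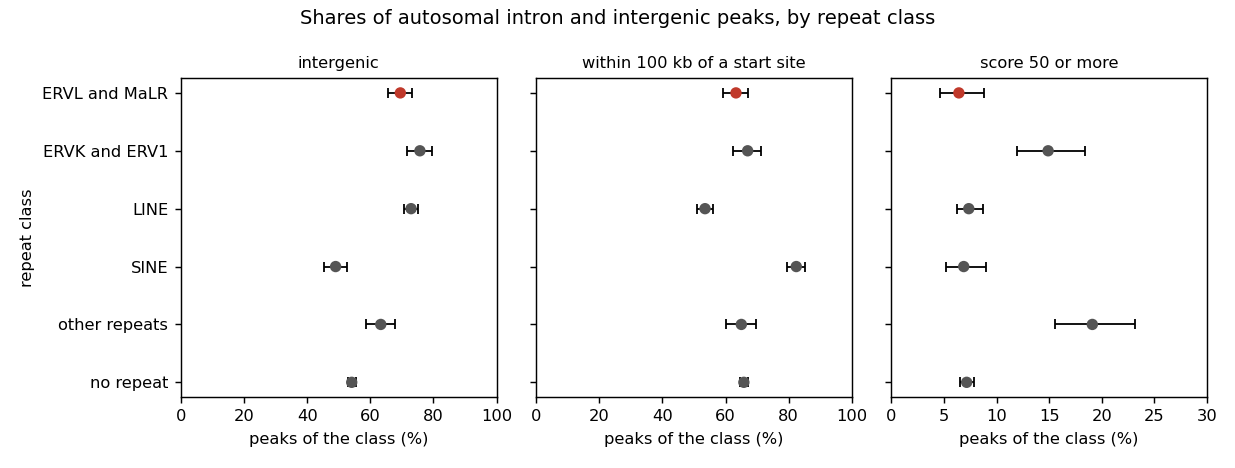
Share of the peaks of each repeat class (y axis) that are intergenic, that lie within 100 kb of a start site and that have a score of 50 or more (x axes, in percent), with 95% Wilson intervals as bars and the ERVL and MaLR peaks in red. ERVL and MaLR peaks are intergenic in 69.5%, and score 50 or more in 6.42%, against 14.9% for ERVK and ERV1.

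Peaks of the set lay a median of 57943 bp from the nearest start site (quartiles 18842 and 172625 bp). Peaks in ERVK and ERV1 elements lay at a median of 52901 bp, those outside repeats at 49922 bp, those in LINE elements at 88083.5 bp and those in SINE elements at 24231.5 bp. ERVL and MaLR peaks therefore stood between LINE and SINE peaks and close to the other LTR peaks. Within 100 kb lay 355 of them (63.3%, 59.2 to 67.2), against 53.5% of LINE peaks (51.1 to 55.9) and 82.4% of SINE peaks (79.5 to 85.1). The share was 64.7% (63.8 to 65.7) over all autosomal intron and intergenic peaks and 67.0% (62.5 to 71.1) in ERVK and ERV1 elements. Both of these intervals overlap that of the set. Within 10 kb lay 81 (14.4%, 11.8 to 17.6), while 19.7% of the whole list, promoters included, and 16.3% of all autosomal intron and intergenic peaks did so. Within 5 kb lay 33 (5.88%), against 9.28% of the other autosomal intron and intergenic peaks. From 5 to 10 kb lay 48 (8.56%), against 7.14% of those other peaks. No interval was computed for either bin, so the order of these shares is not read as a result. More than 500 kb away lay 46 (8.20%, 6.20 to 10.8), against 7.56% (7.04 to 8.11) of all autosomal intron and intergenic peaks.

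**Figure D3:**
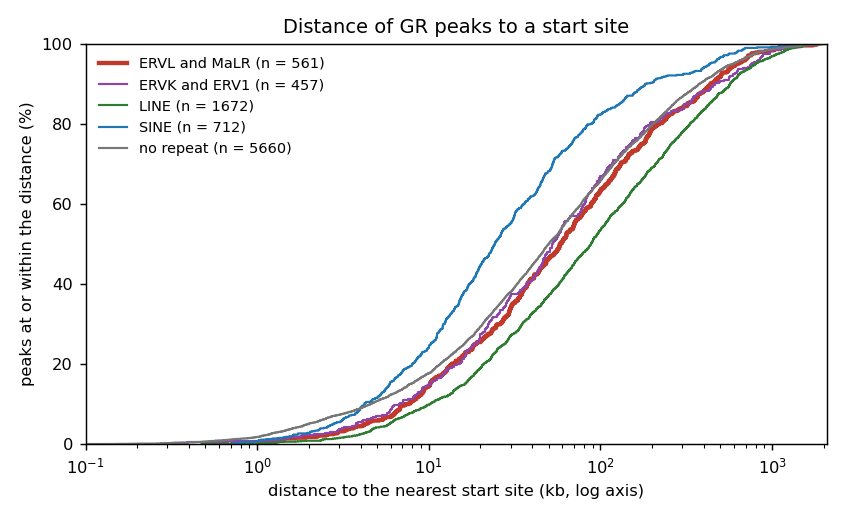
Cumulative share of peaks (y axis, in percent) at or within a distance of the nearest start site (x axis, in kb, log scale), for 5 repeat classes. The ERVL and MaLR curve (red) reaches 63.3% at 100 kb and runs between those of LINE and SINE peaks.

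Intergenic peaks of the set lay a median of 78461.5 bp from a start site and intron peaks 37140 bp. Of the 390 intergenic peaks, 250 lay upstream of the nearest start site (64.1%, 59.2 to 68.7). The share was 59.7% (58.0 to 61.5) for intergenic peaks outside repeats and 63.3% (58.1 to 68.2) for those in SINE elements. Both intervals overlap that of the set. MLT1 and MLT2 peaks had a median distance of 78516.5 bp, MT peaks 59342 bp and ORR1 peaks 53538.5 bp. The median was 77202.5 bp in internal parts and 56445 bp in LTRs, and 53.6% of internal peaks (43.0 to 63.8) and 65.0% of LTR peaks (60.6 to 69.1) were within 100 kb, with overlapping intervals. Within 10 kb lay 15.5% of internal peaks and 14.3% of LTR peaks. Of the 171 intron peaks, 45 lay in a first intron (26.3%, 20.3 to 33.4), against 30.3% of intron peaks outside repeats (28.6 to 32.1), with overlapping intervals.

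The deposited peak score, a whole number from 20 upwards whose scale the file does not state, ran from 20 to 77 in the set, with a median of 33 and quartiles of 32 and 41. The median was 33 in the whole list too. The 5 most frequent scores, led by 33 with 156 peaks and 41 with 115, held 76.6% of the peaks, so medians of small groups move in steps. A score of 50 or more was reached by 36 peaks (6.42%, 4.67 to 8.76), and by 8.88% of the whole list. Among ERVK and ERV1 peaks, the other LTR class, 68 of 457 did so (14.9%, 11.9 to 18.4), and their median score was 38. The interval of the ERVL and MaLR share does not overlap theirs and overlaps those of LINE (7.36%), SINE (6.88%) and unrepeated sequence (7.16%).

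By score band, ERVL and MaLR peaks made up 6.17% of the autosomal intron and intergenic peaks with scores from 20 to 26 (5.11 to 7.45), and 6.39% from 27 to 33. They made up 5.63% from 34 to 41, 5.75% from 42 to 49 and 5.43% from 50 to 58. At 59 or more they were 9 of 262 (3.44%, 1.82 to 6.40). In that last band the ERVK and ERV1 peaks were 37 (14.1%, 10.4 to 18.9), against 3.91% (3.08 to 4.96) in the lowest band. The highest score of the set was 77, and that of ERVK and ERV1 peaks 192.

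**Figure D4:**
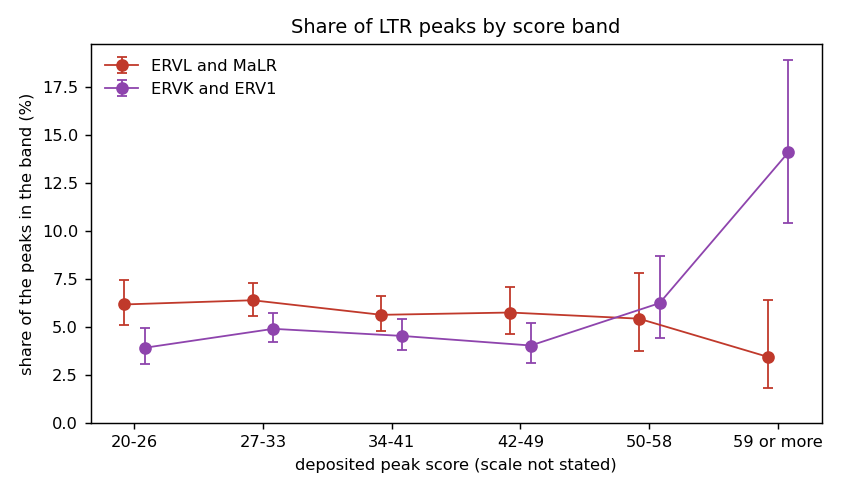
Share of all autosomal intron and intergenic peaks (y axis, in percent, with 95% Wilson intervals) that lie in ERVL and MaLR (red) or ERVK and ERV1 (purple) repeats, by band of the deposited score (x axis). ERVL and MaLR make up 6.17% of the lowest band and 3.44% of the highest, and ERVK and ERV1 3.91% and 14.1%.

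Within the set, the median score was 33 in MT, in ORR1, in MLT1 and MLT2, and in MT2 and MERVL. Scores of 50 or more came from 14 of 186 ORR1 peaks (7.53%, 4.54 to 12.2), 11 of 199 MT peaks (5.53%, 3.11 to 9.63) and 3 of 82 MLT1 and MLT2 peaks (3.66%, 1.25 to 10.2). Their intervals overlap. By group, 6 such peaks lay in ORR1A, 5 in MTD, 4 in ORR1D, and none in the 23 ORR1C peaks or in the 33 peaks of MLT1 elements other than MLT1A, MLT1B and MLT1C, counts that allow shares of up to 14.3% and 10.4% by the Wilson intervals. The remaining ERVL elements outside MT2, MERVL, MLT2 and RMER15 had 5 in 32 (15.6%, 6.86 to 31.8). The median was 33 in internal parts as well as in LTRs. The least width of the list, 146 bp, was shared by 422 peaks of the set (75.2%, 71.5 to 78.6), against 73.2% of all autosomal intron and intergenic peaks, 73.5% of LINE peaks, 74.1% of peaks outside repeats and 63.5% (58.9 to 67.7) of ERVK and ERV1 peaks. Scores of 50 or more were reached by 19 of the 139 wider peaks (13.7%) and by 17 of the 422 of least width (4.03%). The same split is not given for other peaks, so it is not read as a trait of the set.

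**Figure D5:**
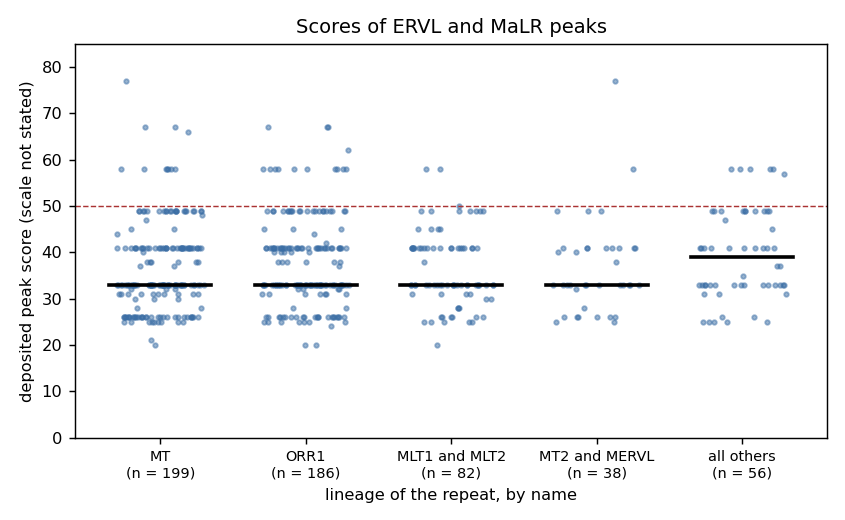
Deposited score of each ERVL and MaLR peak (points, y axis) by lineage of the repeat (x axis), with the median as a black bar and a score of 50 as a dashed line. Medians stand at 33 in 4 lineages and at 39 in the remaining elements, and the 2 highest points, at 77, are in an MT and an MT2 element.

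The genes nearest by start site to the strongest peaks were of many kinds. Positions are given as deposited, on a build that is not GRCm38. Cacna1c, which encodes a subunit of the L-type calcium channel, held a peak scored 77 in its intron 23 of 46, in MTD internal sequence (chromosome 6, 118614221 to 118614366). The other peak with a score of 77 lay in an MT2A LTR in intergenic sequence 305102 bp upstream of Pappa, the gene of a protease that cleaves IGF-binding proteins (chromosome 4, 64480023 to 64480189). The top scores came from different families, the Cacna1c site from MaLR and the Pappa site from ERVL.

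Scores of 67 were given to 5 peaks, all in MaLR elements. Of these, 1 lay in ORR1B2 internal sequence 18467 bp from the start site of Nfya, a subunit of the CCAAT-binding factor NF-Y (chromosome 17, 48521365 to 48521511). An ORR1D2 peak lay 105765 bp upstream of Gpr26, an orphan receptor gene, and an ORR1D1 peak 140080 bp upstream of Dleu2, a noncoding RNA gene. An MTE2a peak nearest to Gm3414 lay in intron 2 of 4 of Lcorl, which encodes a DNA-binding protein related to the nuclear receptor corepressor LCoR (chromosome 5, 46175158 to 46175366). The remaining MTE2a peak lay 3632 bp from the start site of Gm10229 (chromosome 16, 89019077 to 89019232). Thus 3 of the 5 were in ORR1 and 2 in MTE2a.

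An MTB peak with a score of 66 lay 702798 bp upstream of Adcyap1, the gene of the neuropeptide PACAP, and an ORR1A2 peak with 62 lay 44315 bp from Dbx2, a homeobox gene. A score of 58 was shared by 25 peaks. Those nearest to a start site among them were an LTR33 peak 6267 bp upstream of Avpi1, a gene induced by vasopressin, and a MERVL internal peak nearest to Cstf2t. That MERVL peak lay in intron 3 of 17 of Prkg1, which encodes the cGMP-dependent protein kinase (chromosome 19, 31164096 to 31164242). Further peaks with 58 were an ORR1A2 peak 8199 bp upstream of the olfactory receptor gene Olfr1052 and an RMER15 peak 9389 bp upstream of Mobp, a myelin protein gene. An MTD peak with 58 was nearest to 8430436N08Rik, at 15658 bp upstream, and an ORR1A2 peak lay in intron 2 of 2 of the pseudogene Gm4541.

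The best peak of each frequent repeat had a score between 41 and 77. Among repeats not yet named here, an MTC peak with 58 lay 132428 bp upstream of Kcng1, a potassium channel subunit gene. The MTA_Mm LTR had its best peak, also 58, at 264118 bp from Efcab1. An MLT1C peak with 58 lay 120459 bp upstream of Mbnl1, a splicing regulator gene, and an ORR1B1 peak with 58 lay 17951 bp upstream of Auts2. An MTEa peak with 58 lay in the last intron, 17 of 17, of the RNA helicase gene Ddx10, and an ORR1E peak with 58 lay 105696 bp upstream of Tdrd3, the gene of a Tudor domain protein. For MTEb the best score was 49, in intron 1 of 15 of Golim4, a gene of a Golgi membrane protein, and for MLT1B it was 50, at 10471 bp upstream of the major urinary protein gene Mup5. ORR1B2 LTRs had the lowest best score, 41, at 417958 bp upstream of Rgs17, a regulator of G protein signalling.

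The 8 peaks nearest to a start site had scores from 25 to 49. The nearest, with a score of 25, was an MLT1F2 peak 719 bp into 4930434J06Rik. ORR1A3 and MTE2b peaks lay 1126 bp upstream of Dglucy and 1138 bp upstream of Afap1, which encodes an actin filament-associated protein, with scores of 26 and 33. An MLT1A1 peak with 33 lay 1272 bp upstream of Slc4a7, a sodium bicarbonate cotransporter gene (chromosome 14, 15534195 to 15534340). An MTEb peak with 33 lay 1283 bp upstream of the small RNA gene Scarna3a, in intron 18 of 19 of the ubiquitin ligase gene Cop1. An RMER15 peak with 33 lay 1298 bp upstream of Parvaos, in intron 1 of 12 of Parva, which encodes a focal adhesion protein. The highest scores of these 8, 49 each, were at Pag1 and Ncor1. An MTEa peak lay 1327 bp upstream of Pag1, which encodes an adaptor of Src-family kinases (chromosome 3, 9834928 to 9835084). An MTD peak lay in intron 1 of 44 of Ncor1, 1437 bp from the start site (chromosome 11, 62250508 to 62250653). Ncor1 encodes a corepressor of nuclear receptors.

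The 561 peaks had 534 nearest genes, of which 25 were nearest to 2 peaks and 1 to 3. That gene was 1700027H10Rik, with an RMER15 peak of score 49 at 92364 bp upstream, an ORR1A2 peak of score 25 at 196837 bp and an MTE2b peak of score 25 at 413699 bp. Nearest genes were protein-coding for 428 peaks (76.3%, 72.6 to 79.6) and noncoding RNA genes for 124 (22.1%, 18.9 to 25.7). Of all autosomal intron and intergenic peaks, 19.4% (18.7 to 20.2) had a noncoding RNA gene as nearest gene, of ERVK and ERV1 peaks 15.8% (12.7 to 19.4) and of SINE peaks 13.1% (10.8 to 15.7). Of these 3 intervals, that of the SINE peaks alone does not overlap the interval of the set. Olfactory and vomeronasal receptor genes were nearest to 7 peaks of the set (1.25%, 0.606 to 2.55), near the 1.60% (1.37 to 1.88) of all autosomal intron and intergenic peaks. The share was 1.11% outside repeats and 3.28% for ERVK and ERV1 peaks, and the interval of the latter overlaps that of the set.

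Genes from lists on glucocorticoid action, fat cell biology and related subjects were looked up among the nearest genes of the set. Of the 158 listed genes in 7 lists, 4 were the nearest gene of such a peak (2.53%), while 1.89% of the 21900 protein-coding genes were. With a count of 4, these shares are not read as alike or different. With peaks of any kind, 61 of the 158 had one (38.6%), against 22.5% of protein-coding genes. The lists were chosen with earlier results of these data known, so this difference is not read as a preference of GR for these genes. The adipose progenitor list had 2 of 22 genes. Cd24a, a surface marker of early adipocyte progenitors, had an ORR1D1 peak with a score of 49 at 16018 bp upstream (chromosome 10, 43282885 to 43283030). Ly6a, which encodes the progenitor marker Sca-1, had a MERVL internal peak with a score of 26 at 12421 bp upstream (chromosome 15, 74840777 to 74840987).

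The white adipocyte and lipid list had 1 of 20 genes. Mgll, the gene of monoacylglycerol lipase, which acts in the breakdown of stored fat, held an MTC peak with a score of 49 in intron 3 of 7 (chromosome 6, 88718696 to 88718996). At 301 bp this was a wide peak. The thermogenic list had 1 of 20, with an MTEb peak of score 33 at 424244 bp from Ppargc1a, the coactivator gene of mitochondrial biogenesis. None of the 30 glucocorticoid response genes, the 20 adipogenic transcription factors, the 25 Hippo and TEAD genes or the 25 genes of retrovirus silencing had a peak of the set as nearest gene. Peaks of any kind were nearest to 11, 9, 13 and 4 of the genes in these lists, in that order. As 1.89% of all protein-coding genes were nearest to a peak of the set, absence from lists this short is not read as a lack.

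Host genes of intron peaks were found for 170 of the 171 peaks, and 115 of them were also the nearest gene by start site (67.6%). They made up 165 genes, of which 5 held 2 peaks each, and 4 of these are named here, after their values were seen. Prkg1 held the MERVL peak of score 58 and an MTEa peak of score 26, both in intron 3 of 17. Pard3b, a cell polarity gene, held LTR84b and LTR33 peaks of scores 31 and 37 in intron 1 of 22. Gpc5, a glypican gene, and Rbms3, an RNA-binding protein gene, held 2 each with scores from 25 to 33. Mgll was the sole listed gene that held a peak of the set in an intron.

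The spacing of the set was like that of most other peaks. A median of 84939 bp separated each from the next peak of any kind in the list, against 81843 bp for ERVK and ERV1 peaks and 77794 bp for peaks outside repeats. Another peak lay within 10 kb of 50 of them (8.91%, 6.83 to 11.6), against 7.95% of LINE peaks, 8.01% of SINE peaks, 8.69% of peaks outside repeats and 13.8% of ERVK and ERV1 peaks (10.9 to 17.2), whose interval overlaps that of the set. Within 20 kb of each other lay 7 pairs of the set, named here after their values were seen. The closest was an ORR1E and an MTB peak 863 bp apart near Gm20752, with scores of 38 and 41. Near Cdk5rap2, an ORR1E LTR peak of score 33 and an ORR1E internal peak of score 41 lay 5923 bp apart, and near Gm7978 an MTEa peak of 33 and an MT internal peak of 26 lay 4297 bp apart. MLT1B and ORR1D2 peaks of scores 41 and 45 lay 3285 bp apart near Mical2, and at Pard3b the pair in intron 1 lay 1982 bp apart. Near Tdrd3, ORR1E peaks of scores 58 and 49 lay 16975 bp apart, and near Mir6373 MTEb and MERVL_2A internal peaks of 33 and 41 lay 19228 bp apart.

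By chromosome, the set made up between 4.05% of the autosomal intron and intergenic peaks (chromosome 8, 19 of 469, 2.61 to 6.24) and 7.92% (chromosome 13, 35 of 442, 5.75 to 10.8). Those extremes have overlapping intervals, and the most peaks in number, 48, lay on chromosome 1.

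Of the 30 genes with a called interval in the CD137+ table, 1 was the nearest gene of a peak of the set, where 1.89% of protein-coding genes were, so a count this small is not read as sharing. Foxp1, a forkhead transcription factor gene, held an MTC peak with a score of 26 in intron 6 of 19 (chromosome 6, 99019267 to 99019412 as deposited). Its CD137+ interval, with a signal of 42 in an unstated unit, lay 259729 bp into the gene, and the MTC peak is listed at 41047 bp upstream of another start site, so the positions cannot be set against each other.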

How the data were processed

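Deposited peaks of the PDGFRa+ GR immunoprecipitate (10402) were read with their deposited score, annotation, repeat and distance to a start site; the column layout, per the file headers, is that of HOMER's annotation tool. Tools named in the submitters' processing notes are MACS2, Bowtie2, bedtools 2.17.0, SAMtools and FastQC, with mm10 as build and no settings; whether inputs entered peak calling is not given in the sources used here. For the CD137+ table, the deposited CD137+ signal per interval has no stated unit. Implied start sites lay within 1 kb of the GRCm38.p6 gene table for 29 of 561 peaks of the set (20 of 25 on chromosome 16), and 62 peaks of the list lay beyond the last gene of their chromosome, so coordinates are on another build, were not converted, and sequences were not analysed here.

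Shares, Wilson intervals and medians were computed with Python 3.11.15, pandas 2.3.3 and NumPy 2.4.6; code was tested on simulated data. The gene table gave host genes and matched all listed genes. Named peaks were the 15 highest scores, the 8 nearest to a start site, genes with 3 or more peaks, listed genes and the best peak of repeats with 10 or more. Members and lists were chosen with earlier results of these data known. The result for 1 host gene is not reported here.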

Additional observations from a re-analysis of the deposited data

How the results depend on the processing

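Of 47 values recomputed for 8 results under 6 planned settings, 41 stayed within the 95% interval of the reported value or, for the number of peaks, within 1.5 times it. A minimum score of 41 left 231 of the 561 peaks, with a median score of 42, 15.6% at a score of 50 or more and 70.6% of least width. With a minimum of 33 the median score was 41. Removing low scores raises the median by construction. Peaks of least width alone had a score of 50 or more in 4.03%. Adding chromosome X gave 584 peaks, with 7.88% at 50 or more, and 1 peak per nearest gene gave 534. The intergenic share and the distances to start sites stayed within their intervals in all 6 settings. The settings overlap in peaks, and keeping the ERVL and MaLR families alone left 560 of the 561. Values under such a setting could hardly leave the interval. No paired analysis was possible because each group has 1 library. No library could be left out for the same reason. Read depth is unknown, so the precision it gives a score is unknown too.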

Other observations

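LTR repeats other than ERVK and ERV1 on the sex chromosomes, which the rule leaves out, held 26 peaks, all intergenic, 23 on X and 3 on Y. All were in ERVL or MaLR elements except 1 on X near Gm5925, an LTR55 peak of score 27 listed under the family name ERV. Scores of 50 or more were reached by 13 of them (95% Wilson interval 32.1 to 67.9%), against 36 of the 561 autosomal peaks (6.42%). On X, 6 peaks scored above 77, the highest autosomal score of the set. The highest, 149 in an MTE2a LTR, had Astx5 as nearest gene, and the next were 130 in ORR1D internal sequence at Astx5, 118 in MTE2a and 112 in MTC at Astx6. Of the 23 X peaks, 17 lay between positions 120000000 and 123000000 as deposited, a window of 3 Mb chosen after the values were seen, with scores from 21 to 149. Their nearest genes were Astx5, Astx6, the vomeronasal receptor gene Vmn2r121, its relative Vmn2r-ps159 and 4932411N23Rik. The 3 Y peaks, in ORR1B1 and ORR1D1 elements, scored 99, 98 and 70. High scores on these chromosomes were not limited to ERVL and MaLR repeats: of all 236 X peaks 36.0% scored 50 or more, and of all 28 Y peaks 64.3%.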
